A study of Mus musculus with 3 samples.

Results

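Hox genes encode homeodomain transcription factors that give cells along the body axis their positional identity. In the mouse they lie in 4 clusters, Hoxa, Hoxb, Hoxc and Hoxd, and each gene belongs to 1 of 13 paralogy groups, from group 1 (anterior, at one end) to group 13 (posterior, at the other). The 39 Hox genes described here are all protein-coding genes whose symbol is Hoxa, Hoxb, Hoxc or Hoxd followed by digits, out of 22225 protein-coding gene symbols on the assembled mouse chromosomes: 11 in Hoxa, 10 in Hoxb, 9 in Hoxc and 9 in Hoxd. They were chosen by symbol and not by any measured value. Hoxa ran from 52105366 to 52210874 on chromosome 6, Hoxb from 96055630 to 96229570 on chromosome 11, Hoxc from 102751534 to 102867274 on chromosome 15 and Hoxd from 74506367 to 74603200 on chromosome 2 (mouse build mm9).

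The occupancy of these genes by TFAP2A was measured in melan-a cells, a single immortalized mouse melanocyte line from embryonic skin with the genotype Cdkn2a tm1RDp/tm1RDp, a targeted allele of the cell cycle inhibitor gene Cdkn2a on both copies. TFAP2A is a transcription factor of the neural crest and its derivatives, among them the pigment cells. The cells carried no treatment beyond their growth medium, which contained the phorbol ester TPA and cholera toxin. Chromatin immunoprecipitation with the antibody AP-2alpha (3B5) followed by sequencing (ChIP-seq) was done in 2 replicates, and 1 library of input chromatin, which was not precipitated, was the control. Peaks were listed separately for the replicates, 18528 for replicate 1 and 21459 for replicate 2, and the input was not analysed on its own. The number of reads behind each list is unknown, so precision is given by the spread between the replicates and by exact 95% intervals that cover counting error only. With 2 lists from 1 line, no test over samples was possible.

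A peak was placed by its summit, the base of highest signal, and its strength is the fold enrichment over background that the peak caller gave it, a ratio. A gene was counted when a summit lay from 5 kb upstream to 1 kb downstream of one of its transcription start sites (TSSs). Peaks of the replicates that overlapped by at least 1 bp are called shared, with the replicate 1 summit given.

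Shared peaks of the clusters are shown first, as the bases around their summits. TFAP2 proteins bind as dimers to GC-rich palindromes, here written as the consensus GCCNNNGG and searched on both strands. Every match is in capitals, and a run of 9 capitals holds a match on each strand, so that it counted as 2. Sequences are on the plus strand of mm9 and run 5′ to 3′. The first lies upstream of Hoxa6 (chr6:52161859-52161959), in an intron of Hoxa3 and of the long non-coding RNA gene 2700086A05Rik. The second lies between Hoxb13 and Hoxb9 (chr11:96121821-96121921), in an intron of Gm53, and the third in an intron of Hoxb9 itself (chr11:96133372-96133472). The fourth lies just downstream of a Hoxd3 TSS (chr2:74550374-74550458), in an exon of the long non-coding RNA gene 1700109F18Rik.

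Hoxa6 peak: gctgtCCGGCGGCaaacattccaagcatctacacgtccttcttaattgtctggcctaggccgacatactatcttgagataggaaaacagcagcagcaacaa

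Gm53 intron peak: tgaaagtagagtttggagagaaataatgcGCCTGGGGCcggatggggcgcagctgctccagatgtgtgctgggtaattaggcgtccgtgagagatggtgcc

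Hoxb9 intron peak: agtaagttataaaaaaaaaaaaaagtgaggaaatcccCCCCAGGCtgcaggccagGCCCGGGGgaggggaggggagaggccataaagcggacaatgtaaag

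Hoxd3 peak: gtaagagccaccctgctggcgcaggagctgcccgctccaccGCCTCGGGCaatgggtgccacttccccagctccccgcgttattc

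These 4 peaks had mean fold enrichments of 3.61 ± 0.304, 7.24 ± 1.36, 4.90 ± 0.636 and 5.70 ± 0.103, in that order (SD, n = 2). Each contains at least 1 match of the consensus. A run of 9 capitals stands in the sequence of the peaks in the Gm53 intron and at Hoxd3, which are the stronger ones of the 4. The windows follow the replicate 1 summit, and at Hoxa6, where the replicate 2 summit lay 98 bp away, 7 matches stood within 50 bp of the latter against 1 here.

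TFAP2A summits were found in both lists at 7 of the 39 Hox genes, among them Hoxa6, Hoxb3, Hoxb8, Hoxb9, Hoxd3 and Hoxd13. Replicate 1 alone added Hoxa2, Hoxa3 and Hoxb4, and replicate 2 alone added Hoxb2. The other 28 genes had no summit in their window in either list, and all 9 genes of Hoxc were among them. As a share, 17.95% of Hox genes were occupied in both lists (exact 95% binomial interval 7.535 to 33.53), against 17.1% of all protein-coding genes. In replicate 1 alone 10 Hox genes had a summit (25.64%, interval 13.04 to 42.13) against 18.6% of all genes, and in replicate 2 alone 8 had one (20.51%, 9.296 to 36.46) against 21.0%. At least 1 list held a summit at 11 of them, or 28.21%, against 22.5% of all genes. Each of these shares has its background inside its interval, so in these windows the count is not a result about the Hox genes as a set. The relation to the background depended on the setting. With 10 kb to each side of a TSS, 18 Hox genes (46.15%) were occupied in both lists against 26.5% of all genes. At that length the windows of neighbouring Hox genes overlap and 1 peak can count for several genes, while the clusters held only 11 shared peaks. With the upper 50% of each list by enrichment 1 was occupied (2.564%) against 6.43%. What can be described is which genes were occupied and where their peaks lay.

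**Figure D1:**
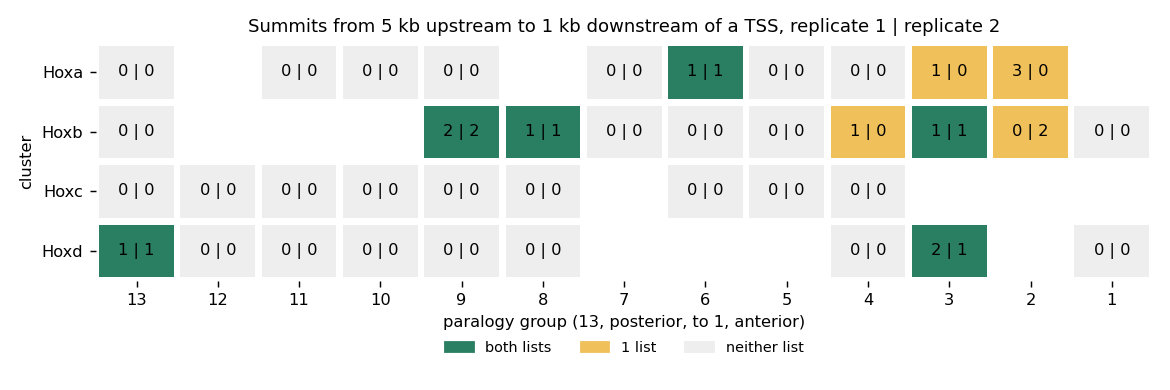
Number of TFAP2A summits in the window of each Hox gene in replicate 1 and, after the bar, replicate 2, by cluster (rows) and paralogy group (columns), for 38 genes. The 6 genes shown with a summit in both lists are dark green, the 4 with a summit in 1 list yellow, and the Hoxc row holds 0 in every cell.

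Among the anterior genes, of groups 1 to 3, which pattern the hindbrain and the pharyngeal arches, Hoxb3 and Hoxd3 were occupied in both lists. Hoxb3 had 1 summit in each list, at 3.66 and 3.86, in an intron of the gene. Hoxd3 had 2 summits in replicate 1, of which only the stronger was shared, at 5.78 and 5.63. The shared one lay 422 bp downstream of a Hoxd3 TSS between Hoxd8 and Hoxd4, 44.0 kb from the group 13 end of the cluster. The unshared one lay 185 bp upstream of another Hoxd3 TSS, 71.1 kb from that end. Hoxa3, a gene needed for the thymus and parathyroid, had 1 summit in replicate 1 at 3.22 and none in replicate 2. That summit lay 246 bp upstream of the TSS of 5730596B20Rik, a protein-coding gene model within the cluster. All 3 genes of paralogy group 3 thus had a summit in replicate 1 and 2 of them in both lists. Their windows were also longer than most, since each has several annotated TSSs: 19.3 kb for Hoxa3, 19.6 kb for Hoxb3 and 30.7 kb for Hoxd3, against a median of 6.07 kb over the Hox genes.

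The group 2 genes differed between the lists. Hoxa2, which sets the identity of the second pharyngeal arch, had 3 summits in replicate 1, at 2952, 1938 and 1123 bp upstream of its TSS, with enrichments of 4.40, 3.87 and 4.22, and none in replicate 2. Hoxb2, which acts in the hindbrain, had 2 summits in replicate 2, at 1472 and 822 bp upstream, with enrichments of 2.72 and 3.80, and none in replicate 1. Another replicate 2 summit lay 2879 bp downstream of the Hoxb2 TSS, beyond the window, at 4.41. Hoxb1 and Hoxd1 had none.

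Of the central genes, of groups 4 to 8, 2 of 15 were occupied in both lists. Hoxa6 had 1 summit in each list, at 3.40 and 3.82, 554 bp upstream of its TSS in replicate 1. The same peak lay 1157 bp (replicate 1) and 1255 bp (replicate 2) downstream of a Hoxa3 TSS, just beyond the Hoxa3 window. Hoxb8 had 1 summit in each list, at 2.44 and 3.25, 3665 bp upstream. The Hoxa6 peak stood at percentile 11.2 of replicate 1 and 15.6 of replicate 2, and the Hoxb8 peak was among the weakest of both lists, at percentile 0.791 and 6.67. Hoxb4, known for its part in blood stem cells, had 1 summit in replicate 1 only, at 3.57, 4982 bp upstream and so barely inside the window. On the other side of the edge, Hoxb6 had a replicate 2 summit 1072 bp downstream of its TSS, which did not count. The central genes with no summit in their window were Hoxa4, Hoxa5, Hoxa7, Hoxb5, Hoxb6, Hoxb7, Hoxc4, Hoxc5, Hoxc6, Hoxc8, Hoxd4 and Hoxd8.

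Of the posterior genes, of groups 9 to 13, 2 of 16 were occupied in both lists. Hoxb9, which acts in the thoracic skeleton, was the only Hox gene with 2 shared summits. One lay 1295 bp upstream of its TSS at 3.997 in replicate 1 and 4.032 in replicate 2, and the other 585 bp downstream at 4.45 and 5.35. Hoxd13, a gene of digit formation, had 1 summit in each list at 4.85 and 5.28, 4684 bp upstream. That summit lies beyond the last Hox gene, outside the cluster, and 3765 bp upstream of the TSS of Evx2, the even-skipped homeobox gene next to Hoxd13, so it falls in the window of both genes. The posterior genes with no summit were Hoxa9, Hoxa10, Hoxa11, Hoxa13, Hoxb13, Hoxc9, Hoxc10, Hoxc11, Hoxc12, Hoxc13, Hoxd9, Hoxd10, Hoxd11 and Hoxd12.

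Window length moved with these counts. Over all protein-coding genes, 11.58% of those with a window of 6 to 7 kb had a summit in both lists, 19.6% of those with 7 to 12 kb and 27.77% of those above 12 kb. The Hox genes in these classes numbered 26, 6 and 7, of which 4, 1 and 2 were occupied in both lists. The part of window length in the differences between paralogy groups was not tested.

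Counted once each, the summits inside the clusters formed 21 loci, of which 11 were shared, 6 were found in replicate 1 only and 4 in replicate 2 only. Hoxb held 12 of them (7 shared, 1 in replicate 1 only and 4 in replicate 2 only), Hoxa 6 (2 shared and 4 in replicate 1 only), Hoxd 3 (2 shared and 1 in replicate 1 only) and Hoxc 0. Hoxa and Hoxb therefore differed in which list held the unshared peaks. Of the 11 shared loci, 7 lay in the window of a Hox gene and 4 did not. By annotation, 5 had their summit in an intron, 3 in an exon and 3 between genes. The summits of the paired peaks lay a median of 21 bp and at most 98 bp apart.

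The 4 shared loci outside the windows were as follows. The peak in the Gm53 intron lay between Hoxb13 and Hoxb9, 10900 bp upstream of the nearest Hoxb9 TSS, with enrichments of 8.20 and 6.27. It lay 1053 bp upstream of a TSS of Gm53, a protein-coding gene model, and so in the window of that gene. A second peak of the same stretch lay 9549 bp downstream of the Hoxb13 TSS in an exon of the long non-coding RNA gene Gm11538, at 3.43 and 4.60. The third lay 6835 bp downstream of the Hoxb5 TSS, between genes, at 3.51 and 4.78. The fourth lay 7891 bp downstream of a Hoxd3 TSS, toward Hoxd1 and in an exon of the non-coding gene Gm14424, at 3.39 and 5.20. Its bases (chr2:74591572-74591672) hold no match of the consensus and are shown for contrast with the peaks above.

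Gm14424 exon peak: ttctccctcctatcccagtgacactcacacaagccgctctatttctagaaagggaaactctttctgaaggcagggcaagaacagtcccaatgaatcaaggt

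**Figure D2:**
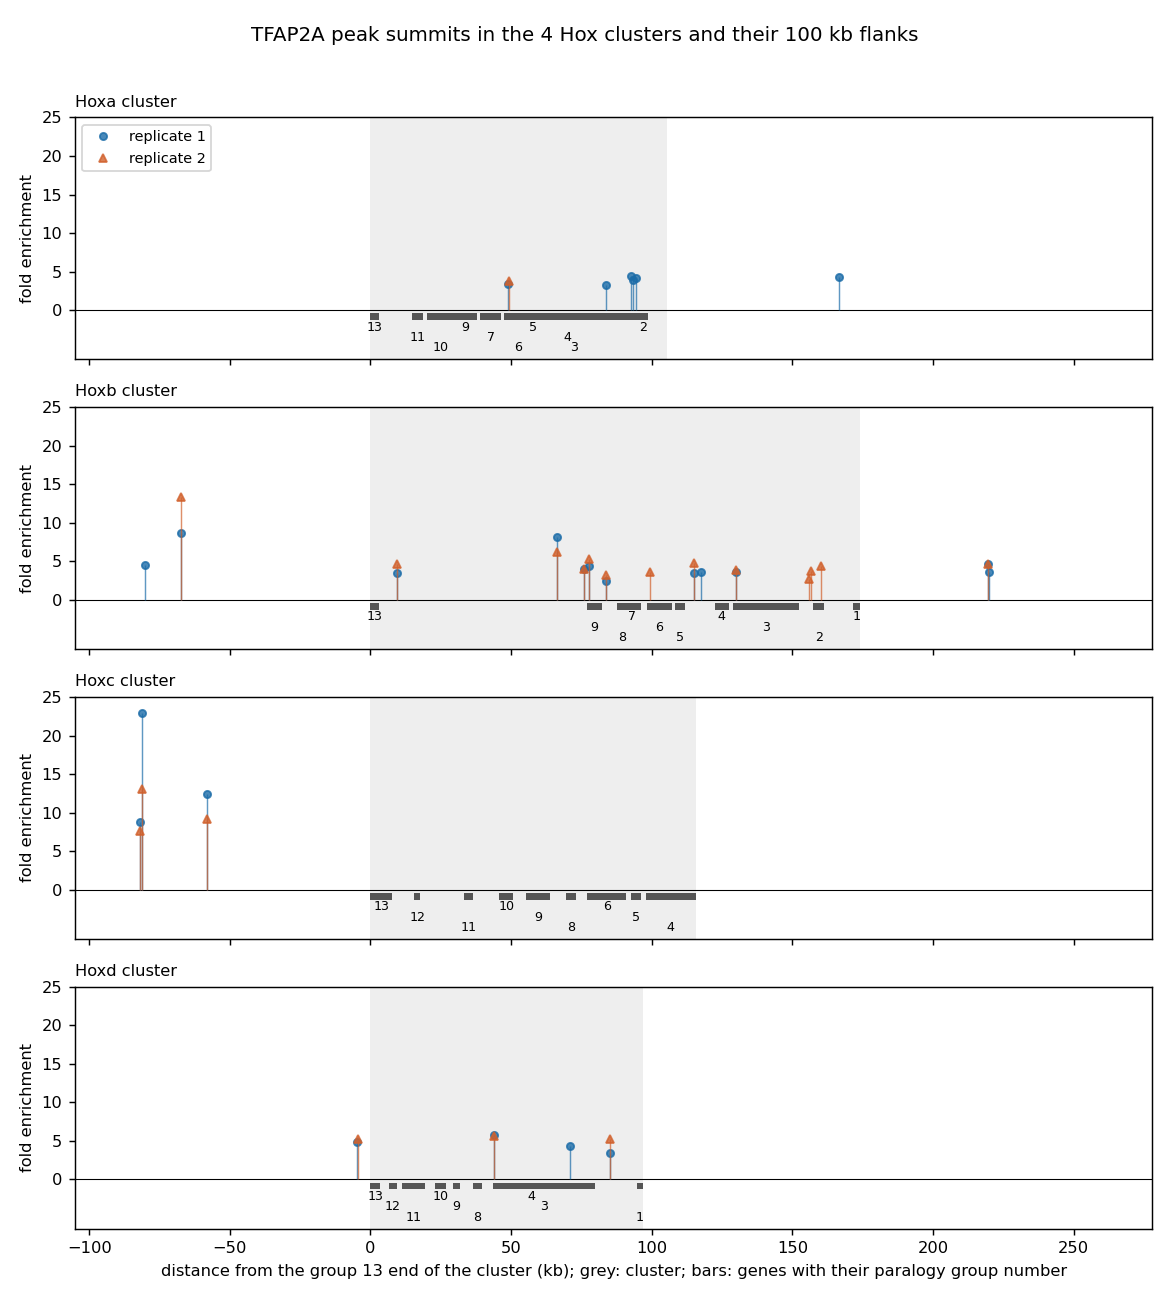
Fold enrichment of TFAP2A summits (circles, replicate 1; triangles, replicate 2) against their distance in kb from the group 13 end of the cluster. Grey marks the cluster, dark bars 38 Hox genes with their paralogy group number; Hoxc holds no summit between its 3 strong upstream peaks and the end of its flank.

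Along the clusters the shared summits lay mostly in the middle, which came from Hoxb. When each cluster was divided into 3 equal lengths, the part at the group 13 end held 1 summit in replicate 1 and 1 in replicate 2, the middle part 7 and 8, and the part at the group 1 end 9 and 6. Shared summits numbered 1, 7 and 3 in these parts, or 0.61, 4.27 and 1.83 per 100 kb, so most replicate 1 summits at the group 1 end had no partner. In Hoxb the shared counts were 1, 5 and 1, while Hoxa and Hoxd each had 0, 1 and 1. Per 100 kb this was 0.61 in both lists for the group 13 part (interval 0.0154 to 3.40), 4.27 and 4.88 for the middle part (1.72 to 8.79 and 2.11 to 9.61), and 5.49 and 3.66 for the group 1 part (2.51 to 10.4 and 1.34 to 7.96). The 1 summit of the group 13 part was the Gm11538 exon peak, and the parts of Hoxa and Hoxd at that end held none. The intervals of the parts overlap in both lists. The consensus did not follow the same order, with 3.28, 3.45 and 2.93 matches per kb from the group 13 part to the group 1 part.

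Per length, more summits lay inside the 4 clusters together than in the 100 kb on each side, by intervals that overlapped slightly in replicate 1 and did not in replicate 2. The clusters, 492.025 kb in all, held 17 summits in replicate 1 and 15 in replicate 2, or 3.46 per 100 kb (interval 2.01 to 5.53) and 3.05 per 100 kb (1.71 to 5.03). The 8 flanks, 800 kb in all, held 9 and 6, or 1.13 (0.514 to 2.14) and 0.75 (0.275 to 1.63). The ratio of clusters to flanks was 3.07 in replicate 1, 4.07 in replicate 2 and 2.98 for shared peaks, whose intervals overlapped (1.12 to 4.0 per 100 kb in the clusters and 0.275 to 1.63 in the flanks). Hoxc went the other way, with 0 inside and 1.5 per 100 kb in its flanks in both lists, while Hoxb had ratios of 2.30 and 6.32 and Hoxd of 6.20 and 4.13. Hoxa had a ratio of 11.4 in replicate 1, where its flanks held 1 summit, and none in replicate 2, where they held 0. The assembled genome had 0.723 and 0.837 summits per 100 kb, so that the clusters stood 4.78-fold and 3.64-fold above it. In the clusters the consensus was also denser, at 3.22 matches per kb against 1.69 in the flanks and 1.24 in the genome, ratios of 1.91 and 2.60. GC content was 49.3% in the clusters, 44.1% in the flanks and 41.8% in the genome. The part of sequence composition in the summit density was not tested.

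The ratio depended on which peaks and extents were taken. It fell to 0.813 when only the upper 50% of each list by enrichment was kept, which left 2 shared peaks inside the clusters, and to 1.93 when the Hoxb cluster was taken from Hoxb1 to Hoxb9. The second change also moved the flank, so that the 3 shared summits between Hoxb13 and Hoxb9 then counted as flank.

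**Figure D3:**
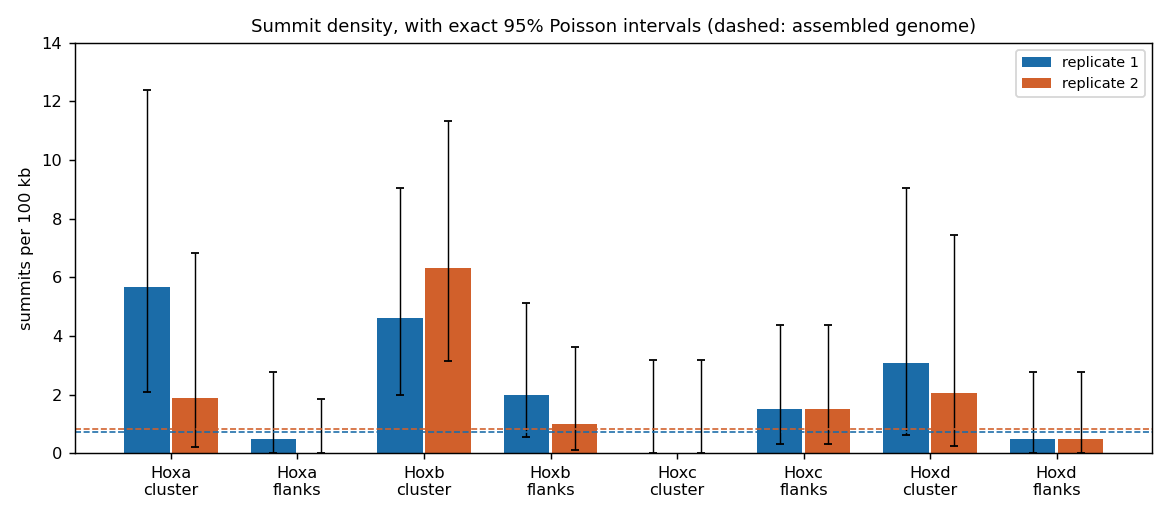
Summits per 100 kb (bars) in each cluster and its 2 flanks of 100 kb together, in replicate 1 (blue) and replicate 2 (orange), with exact 95% Poisson intervals for counting error only. Hoxb reached 4.60 and 6.32 per 100 kb and Hoxc 0, while dashed lines mark the genome at 0.723 and 0.837.

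The clusters themselves differed in order but with wide intervals. Hoxb had 4.60 summits per 100 kb in replicate 1 (1.99 to 9.06) and 6.32 in replicate 2 (3.16 to 11.3). Hoxa had 5.69 (2.09 to 12.4) and 1.90 (0.23 to 6.85), so its rank depended on the replicate. Hoxd had 3.10 (0.639 to 9.05) and 2.07 (0.25 to 7.46). Hoxc had none in either list, which allows up to 3.19 per 100 kb. The intervals overlap for every pair of clusters in both lists, most narrowly in replicate 2, where the upper bound of Hoxc was 3.19 and the lower bound of Hoxb 3.16.

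The Hoxc cluster contained 350 matches of the consensus, or 3.02 per kb, against 2.75 in Hoxb, 3.71 in Hoxa and 3.77 in Hoxd. A stretch with 3 matches 2338 bp upstream of the Hoxc12 TSS (chr15:102764800-102764900), chosen for its matches from the sequence between genes, shows what the cluster holds without a peak.

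Hoxc stretch without a peak: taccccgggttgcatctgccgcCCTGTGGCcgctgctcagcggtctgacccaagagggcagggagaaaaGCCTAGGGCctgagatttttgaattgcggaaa

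The gap around the cluster ran from the summit at 102693556 on chromosome 15 to that at 103044831 in replicate 1, which is 351 kb. In replicate 1, 8.739% of gaps were at least as long and together they held 60.64% of the genome. For the same gap in replicate 2 the values were 7.487% and 56.82%. Pooling both lists gave 3.936% and 54.45%. In that count the 2 summits of a shared peak can add a short gap of their own. Of 25630 tiles of 100 kb, 60.37% held no summit in either list. The absence of peaks in Hoxc is given as a description of 1 region.

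The upstream flank of Hoxc, by contrast, held 3 shared peaks, at 82.0, 81.3 and 58.0 kb from the group 13 end. Their fold enrichments were 8.82 and 7.58, 22.9 and 13.0, and 12.4 and 9.17 in replicates 1 and 2. The middle one, with a mean of 18.0 ± 7.01 (SD, n = 2), had the highest mean of all shared peaks in the clusters and flanks and stood at percentile 98.5 of replicate 1 and 92.2 of replicate 2. Its summit bases lie between genes (chr15:102670225-102670325) and hold a single match and a run of 9 capitals.

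Hoxc flank peak: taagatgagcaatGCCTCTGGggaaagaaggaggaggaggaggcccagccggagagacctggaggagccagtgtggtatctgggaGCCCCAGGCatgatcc

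The other flanks were sparser. At the Hoxb group 13 side, a shared peak 67.2 kb away, between genes and 6643 bp upstream of the TSS of Ttll6, had enrichments of 8.71 and 13.3, and its bases (chr11:95988407-95988507) hold no match. A replicate 1 peak at 4.53 lay 2222 bp upstream of Calcoco2, the single protein-coding neighbour other than Evx2 with a flank summit in its window. At the Hoxb group 1 side a shared peak 47.5 kb past the Hoxb1 TSS had 4.63 and 4.66. The Hoxa flanks held 1 summit, in replicate 1, and the Hoxd flanks only the peak upstream of Hoxd13, whose bases around the replicate 1 summit (chr2:74501633-74501733) also hold no match, while 1 match lay 11.5 bp from the replicate 2 summit. Past the Gm14424 exon peak inside Hoxd, no summit followed for 856 kb.

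Hoxb flank peak: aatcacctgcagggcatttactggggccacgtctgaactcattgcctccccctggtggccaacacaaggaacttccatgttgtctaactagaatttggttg

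Hoxd13 upstream peak: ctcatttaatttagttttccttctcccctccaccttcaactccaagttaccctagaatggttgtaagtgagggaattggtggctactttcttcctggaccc

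Peaks inside the clusters were weak for their lists. Their median fold enrichment was 3.87 in replicate 1 and 4.41 in replicate 2, against 5.56 and 5.74 for all peaks and 4.61 and 4.89 for peaks in the windows of protein-coding genes. The median cluster peak stood at percentile 19.9 of replicate 1 and 26.3 of replicate 2, and 3 of 17 and 2 of 15 lay above the median of their list. Of the replicate 1 cluster peaks, 64.7% had a partner in replicate 2 (38.3 to 85.8) against 87.1% of all peaks, and 73.3% of the replicate 2 cluster peaks against 76.0%. The values of all peaks include those of the clusters, and the differences were not tested.

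**Figure D4:**
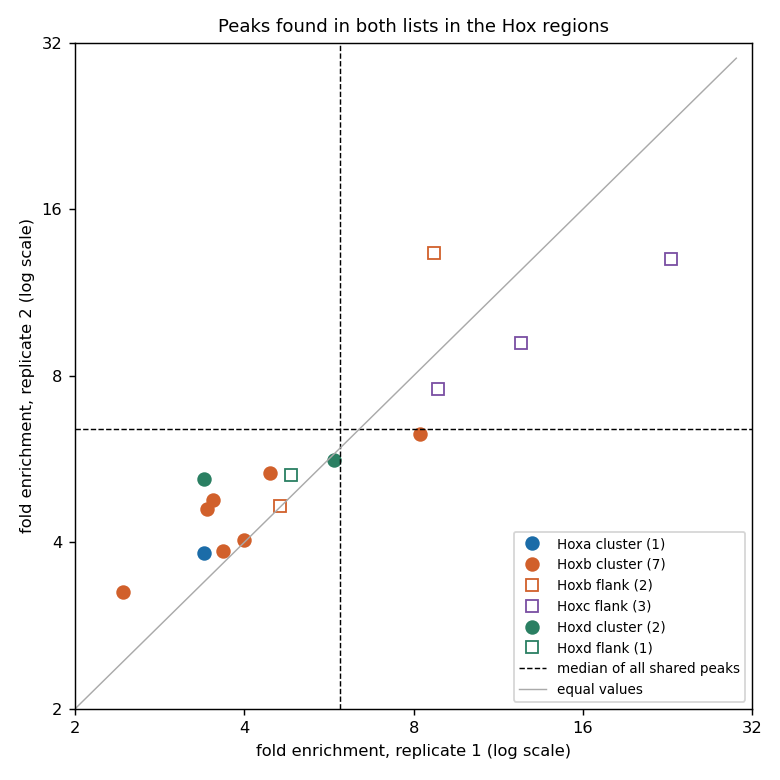
Fold enrichment in replicate 2 against replicate 1 (log scales) for 16 shared peaks of the Hox regions, filled in the clusters (10) and open in the flanks (6). Dashed lines mark the medians of all shared peaks, 5.93 and 6.40, and 9 of the 10 cluster peaks shown lie below both.

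The consensus was found within 50 bp of the summit at 8 of the 11 shared cluster peaks, or 72.73% (39.03 to 93.98), against 57.1% of all shared peaks and 64.5% of those in the windows of protein-coding genes. Equally long windows shifted by 400 bp from the summits held a match in 36.4% of cases in the clusters and 15.3% over all shared peaks. The interval of the cluster share contains both comparison values. Seen from the sequence, few matches had a summit: 1.20% of the 1585 matches inside the clusters had a replicate 1 summit within 50 bp and 1.83% a replicate 2 summit, against 0.519% and 0.296% of the 1350 in the flanks and 0.565% and 0.689% in the genome. A match is a run of letters and no measure of binding.

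Gene by gene, the number of matches per kb of window did not separate occupied from unoccupied Hox genes. Hoxd8, with 7.65 matches per kb the highest, had no summit, and nor had Hoxa10 with 5.99 or Hoxd11 with 5.97. Hoxd13, with a shared summit, had 2.67, while Hoxb9 had 5.60. The 9 Hoxc genes ranged from 1.83 to 4.50 with a median of 3.67, inside the range of the other clusters.

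**Figure D5:**
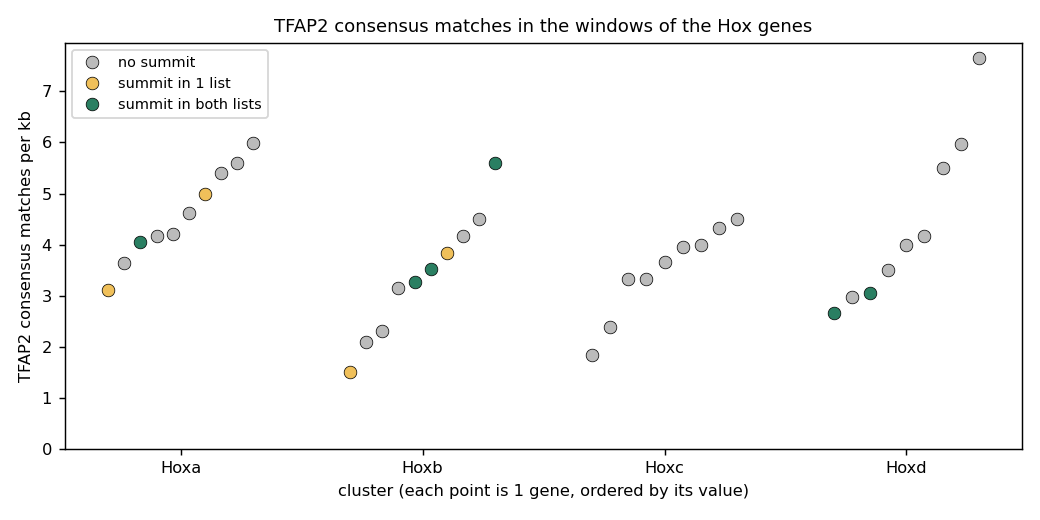
Matches of GCCNNNGG per kb in the window of 38 Hox genes (points), by cluster, with genes occupied in both lists in green, in 1 list in yellow and in neither in grey. The green points run from 2.67 (Hoxd13) to 5.60 (Hoxb9) and overlap the grey ones.

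The clusters also carry microRNA genes, which repress Hox messages among others. Mir196a-1, between Hoxb13 and Hoxb9, was the only one with a summit in its window, in both lists, and this was the Gm53 intron peak, 4607 bp and 4618 bp from its TSS. Mir196a-2 in Hoxc encodes the same mature 5p sequence and Mir196b in Hoxa one that differs at 1 base, and both share the seed (bases 2 to 8, in capitals, from RefSeq). Their nearest replicate 1 summits were 110216 bp and 18255 bp away.

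miR-196a-5p: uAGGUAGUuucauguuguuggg

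miR-196b-5p: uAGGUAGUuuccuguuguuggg

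Mir10a in Hoxb, Mir10b in Hoxd and Mir615 in Hoxc had no summit in their windows. Among the other non-coding genes of the clusters, several had a summit of both lists in their windows. Among them were Gm11538 and 0610040B09Rik in Hoxb, and 1700109F18Rik, 6720416L17Rik, Gm14424 and Gm14426 in Hoxd, where the cluster held only 2 shared loci, so that these 4 genes do not rest on 4 separate peaks.

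Genes that work with or upstream of the Hox genes were counted in the same way, against the same 17.1% of all genes in both lists. Of 9 genes for the TALE cofactors that bind DNA together with Hox proteins, 2 were occupied in both lists, Pbx2 at 2.59 and 4.41 and Meis2 at 7.53 and 6.31, each the highest value in its window in replicates 1 and 2. Of 9 ParaHox and Hox-linked homeobox genes, 2 were, Evx2 through the peak it shares with Hoxd13 and Gsx1 at 7.35 and 10.1. Of 14 genes of the Polycomb group, which keeps silent Hox genes silent, 5 were, among them Eed at 6.61 and 9.71 and Ezh2 at 5.60 and 6.64. Of 8 genes of the Trithorax group, which keeps active Hox genes active, 2 were, Kmt2c at 3.29 and 3.86 and Kmt2d at 3.65 and 4.41. Of 11 genes of retinoic acid signalling, which turns on anterior Hox genes in the embryo, 5 were: Rara, Rarb, Rarg, Rxra and Aldh1a1. Of these, Rarb had 5.71 and 11.6 and Rarg 8.67 and 8.51. For the label of the cells, 5 of 10 melanocyte marker genes had a summit in both lists (Mitf, Sox10, Tyrp1, Dct and Mlana), as did 0 of 5 keratinocyte and 2 of 5 fibroblast marker genes. A summit at a gene records occupancy and not expression, so these counts do not check the cell type.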

How the data were processed

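TFAP2A ChIP-seq of melan-a cells (2 replicates) and 1 input library were described in the labels, and the authors deposited separate peak lists for the ChIP replicates. The submitters' processing notes name BWA, MACS 1.4.2 and mm9, without saying which tool wrote the lists, so the background behind the fold enrichment and the way summits and q-values were set remain unstated here. The deposited lists give for each peak a fold enrichment (a ratio), its p-value and q-value as −log10, and a score, which in every peak was −log10 p times 10 without its decimals. The lowest −log10 q was 2.63573 in replicate 1 and 2.63617 in replicate 2, so weaker regions are not in the lists. Coordinates were used as given; 0 peaks ran past a chromosome end of mm9 (NCBIM37). Genes came from GENCODE vM1, and models with the same symbol (Hoxa3) were joined.

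Summits were counted in gene windows, clusters (first to last base of their Hox genes) and flanks with Python 3.11.15, numpy 2.4.6, pandas 2.3.3, scipy 1.17.1, pysam 0.24.0 and samtools 1.23.1, after a test on simulated data. Intervals are exact Poisson or Clopper-Pearson 95% intervals. Peaks on unplaced contigs were left out. Hox genes are named, with values where a window held a summit, and sequences are shown for the 2 strongest shared peaks of each cluster and the strongest in the flanks of a cluster, where they held one. For 1 Hox gene, values, sequence and plotted points are not reported here, and it enters counts, densities and medians only. The members and lists were chosen with earlier results of these data known. Alternatives covered thresholds, windows, TSSs, overlap rules, cluster and flank extents and the consensus.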

Additional observations from a re-analysis of the deposited data

How the results depend on the processing

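Of 97 recomputed values, 67 stayed within 1.5 times the count, or within the replicate spread, and 30 moved. Hoxc held 0 shared summits under every alternative tried. As both full lists held 0 summits there, only extending the clusters by 5 kb at each end could have changed this. These Hoxc values are among the 67, as are those of Hoxa and Hoxd when only Hoxb was shortened. Windows of 1 kb to each side of a TSS gave 4 Hox genes in both lists (10.26%, against 12.9% of all genes) and 4 in replicate 1 (10.26%, against 14.2%). Windows of 10 kb gave 18 in both lists (46.15%, against 26.5%), 18 in replicate 1 (46.15%, against 28.5%) and 20 in replicate 2 (51.28%, against 31.5%), so the Hox share moved above the background there. Neighbouring windows overlap at that length, so that 1 peak can count for several Hox genes. Keeping the upper 50% of each list by fold enrichment left 1 gene in both lists (2.564%, against 6.43% of all genes), 2 in replicate 1 (5.128%, against 7.44%) and 1 in replicate 2 (2.564%, against 8.65%), and 2 shared summits in the clusters, 1 in Hoxa, 1 in Hoxb and 0 in Hoxd. Under it the density ratio of clusters to flanks fell from 2.98 to 0.813, the median enrichment of the 2 remaining peaks was 7.97, its ratio to all shared peaks 0.90 (0.618 in the main analysis), and 100% held the consensus.

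With Hoxb taken from Hoxb1 to Hoxb9, and its flank moved to match, Hoxb held 4 shared summits and the density ratio was 1.93, and with flanks of 50 kb it was 4.47. Replicate 2 values in place of replicate 1 gave a median of 4.78 and a ratio of 0.746, and −log10 p in place of enrichment a ratio of 0.752. Of the shared cluster peaks, 36.4% held the longer consensus GCCNNNGGC (19.1% of all). Leaving out 1 replicate gave 15 to 17 summits in the clusters, 2 to 6 in Hoxa, 8 to 11 in Hoxb, density ratios of 3.07 to 4.07, medians of 3.87 to 4.41 and strength ratios of 0.696 to 0.767. Beyond the construction of each alternative, the cause was not tested. No paired analysis was possible because the ChIP replicates form 1 group and the input has a single library.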
